A study of Mus musculus with 12 samples.

Results

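The collagen genes were followed across the livers of 12 mice, with 1 Agilent one-colour array per liver. Every probe whose gene name is Col, a number, the letter a and a number was taken, which gave 70 probes of 45 names among the 34607 names on the array. Of these names 44 are collagen genes. The remaining name, Col4a3bp, is the older symbol of Cert1, which encodes a ceramide transfer protein and is no collagen, and it was called in none of the 3 comparisons. The selection used names alone and no measured value.

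The 3 groups held 4 separate mice each. They were wild type mice (WT) on a 129/Sv x C57BL/6 background and mice labelled E2f1-/- or E2f2-/-, knockouts of transcription factors that bind promoters of cell cycle genes. Per the protocol every mouse, WT included, was injected once at 14 days of age with diethylnitrosamine (25 mg/kg), a carcinogen of the liver. From weaning, at 1 month, the mice ate a diet with 60% of its calories from fat for 32 weeks, and they were 9 months old and fasted for 4 hours when killed. One label field of the E2f1-/- mice names vehicle and chow in place of carcinogen and fat, against their titles, descriptions, characteristics and the protocol, and this conflict goes with each comparison that uses them. Sex, the background of the knockouts and the deleted exons were not given in the sources used here. RNA came from liver homogenate, so fewer cells of a type and less RNA per cell cannot be told apart in any value below.

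Collagens are proteins of the extracellular matrix whose chains wind into a triple helix. Fibrillar collagens, chiefly types I, III and V in liver, assemble into the banded fibres of scar and portal tissue, and in liver injury activated stellate cells and portal fibroblasts are their main source. Type IV collagens form a network in basement membranes, which surround vessels and bile ducts, and type XVIII lies in the basement membrane zone and is also made by hepatocytes. Type VI forms beaded filaments around cells, fibril-associated collagens such as types XIV and XVI sit on the surface of fibres, and type VII forms anchoring fibrils below epithelia.

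Values are log2 signals minus the array's own 75th percentile, so they compare arrays for the same probe and say nothing about which collagen is more abundant. That percentile lay between 107.7 and 211.7 intensity units, and 44.6% to 54.4% of all probes were well above background. A log2 difference of 1 is a doubling. A gene was tested if 1 of its probes passed as well above background in 3 or 4 livers of any group, its brightest such probe stood for it, and a Benjamini-Hochberg adjusted p under 0.05 from limma, over 20568 genes, is called here a rise or a fall. Each slide carried 1 array of each group at the same position for a given group, so array position and genotype cannot be told apart. Both knockout groups are set against the same 4 WT livers, so the comparisons with WT are not independent.

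As a check of the labels, the probe of E2f1 averaged 0.24 ± 0.32 (SD, n = 4) in WT and -0.59 ± 0.11 in E2f1-/- livers, a fall of 0.83 ± 0.19 (SE; limma adjusted p = 0.0106). The probe of E2f2 averaged 0.98 ± 0.27 in WT and 0.69 ± 0.25 in the livers labelled E2f2-/- (difference -0.29 ± 0.21, limma adjusted p = 0.361), and -0.53 ± 0.38 in E2f1-/- livers (-1.51 ± 0.21, adjusted p = 0.00136). The E2f2 probe thus did not mark its own group, and whether it lies in the deleted part is not known here. The group is called the E2F2-labelled livers. All 10 hepatocyte markers examined were bright enough to be tested.

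Of the 44 collagen genes 21 could be tested and 23 could not. Among the tested genes were 7 of 11 fibrillar genes, 5 of 6 type IV genes, Col18a1, the type VI genes Col6a1, Col6a2 and Col6a3, the fibril-associated genes Col9a2, Col14a1, Col16a1 and Col20a1, and Col7a1. For 17 of the 21 the probe was well above background on all 12 arrays. The exceptions were Col4a3, Col4a4, Col11a2 and Col27a1. Col4a3 entered the test through WT arrays alone and Col27a1 through the knockout arrays. The filter thus favoured a difference for both, and their calls are no support for one. Col11a2 entered through the E2F2-labelled arrays. Of the 23 untested genes 10 were well above background on 0 of 12 arrays, and none exceeded 4. The cartilage and cornea genes Col2a1, Col10a1, Col11a1, Col8a1 and Col9a3 were among those 10, with Col6a5, Col17a1, Col22a1, Col23a1 and Col28a1. The others were Col4a5, Col5a2, Col6a4, Col6a6, Col8a2, Col9a1, Col12a1, Col13a1, Col15a1, Col19a1, Col24a1, Col25a1 and Col26a1. A gene that stayed near background here was not shown to be absent.

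**Figure D1:**
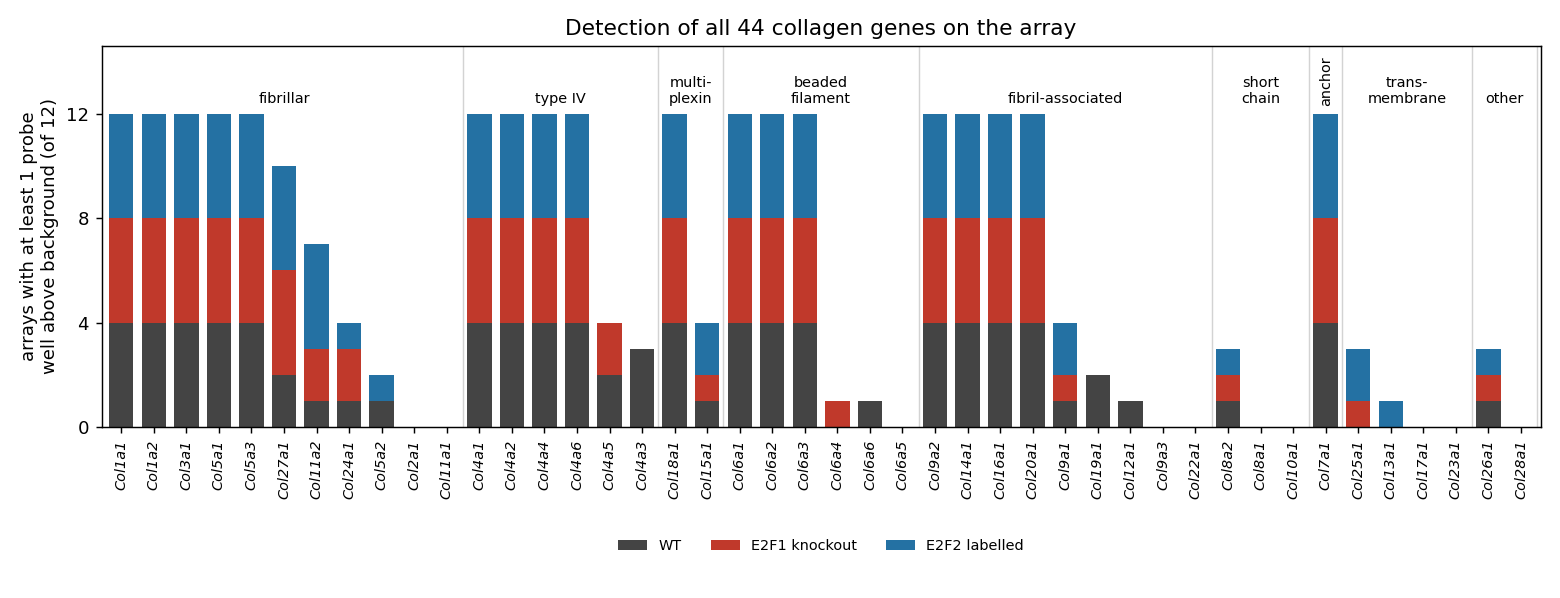
Number of the 12 arrays on which at least 1 probe of each of the 44 collagen genes was well above background, stacked by group (4 arrays each) and ordered by class. Fibrillar genes split into 5 seen on 12 arrays and others seen on 10 or fewer, Col4a3 was seen on 3 WT arrays and on 0 of the knockout arrays, and 10 genes were seen on 0 arrays.

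Compared with WT, the fibre chain genes Col1a2, Col3a1 and Col5a1 and the basement membrane genes Col4a1 and Col4a2 fell in both knockout groups, Col1a1 and Col6a3 fell in E2F2-labelled livers, and the minor fibrillar gene Col5a3 rose in both. In E2f1-/- livers 10 of 21 tested collagens were called, 4 higher and 6 lower, where 20.3% of all tested genes were called (12.8% higher, 7.48% lower). In E2F2-labelled livers 10 of 21 were also called, 2 higher and 8 lower, again beside 20.3% of all genes (12.5% higher, 7.85% lower). Between the knockout groups 0 of 21 were called by limma, against 1.59% of all genes (0.846% higher and 0.749% lower in E2F2-labelled livers). At an unadjusted limma p under 0.05, 4 collagens were lower (Col1a1, Col3a1, Col4a2 and Col6a3). The share of all genes at that unadjusted threshold was not computed, so this count has no background beside it. Of the 17 collagens whose probe passed the filter in each of the 3 groups, 3 rose and 5 fell in E2f1-/- and 1 rose and 7 fell in E2F2-labelled livers. The median change of the tested collagens was -0.22 in E2f1-/- and -0.38 in E2F2-labelled livers, while the median over all tested genes was 0.12 and 0.15.

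These backgrounds depend in part on the scaling. Of the called genes as a whole 63.1% were higher in E2f1-/- livers, against 50.4% after quantile normalization and 50.9% after centring on the median. The corresponding shares in E2F2-labelled livers were 61.4%, 49.5% and 47.6%. The sign of a called collagen change turned in 0 of 456 refits. With the filter tightened to probes above background on all 12 arrays, 17 collagens were tested, with 3 higher and 5 lower in E2f1-/- and 4 higher and 7 lower in E2F2-labelled livers. In a fit that blocked on slide the numbers were 5 higher and 6 lower, and 4 higher and 9 lower. Without E2F1 knockout replicate 3 the E2f1-/- comparison called 5 collagens, and it called 6 without E2F1 knockout replicate 4 and 6 without WT replicate 4.

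**Figure D2:**
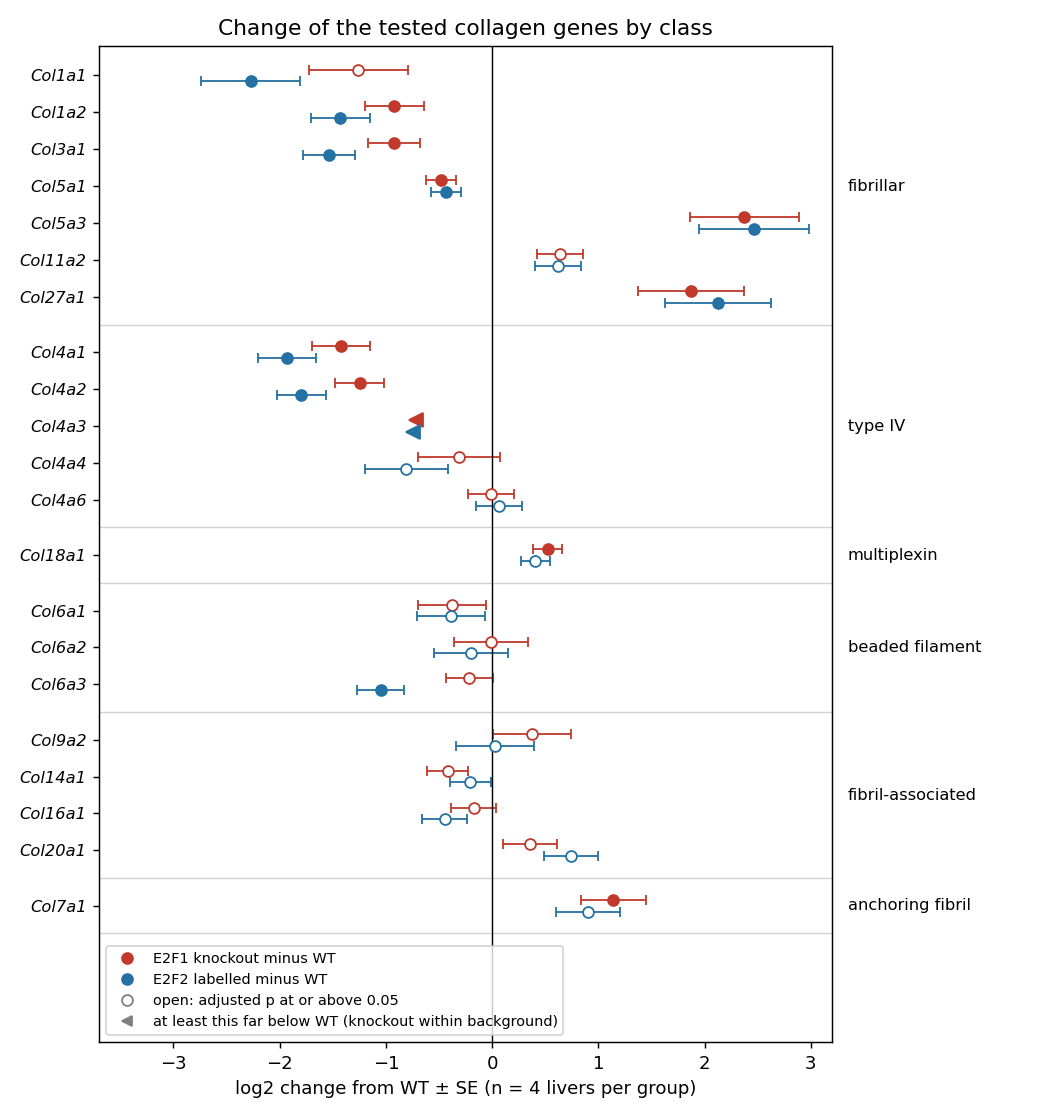
Log2 change from WT (points) with its standard error (bars, n = 4 livers per group) for the 21 tested collagens, grouped by class. Filled points have a limma adjusted p under 0.05. Triangles for Col4a3 mark its bounds under the main scaling (1.64-fold and 1.68-fold lower), since its knockout signals were within background. In E2F2-labelled livers the called falls run from -0.43 for Col5a1 to -2.27 for Col1a1, and the called rises are Col5a3 at 2.47 and Col27a1 at 2.13.

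The type III gene and Col1a2 fell in both knockout groups, and Col1a1 fell in E2F2-labelled livers. Col1a1 and Col1a2 encode the alpha-1 and alpha-2 chains of type I collagen, the bulk protein of scar, and Col3a1 the single chain of type III collagen. The Col1a1 probe (chromosome 11, mm9 94813115 to 94813174) read 1.32, 0.74, 0.06 and 1.48 in WT replicates 1 to 4. It read 1.05, -0.57, -1.10 and -0.82 in the E2f1-/- livers, and -2.16, -0.94, -1.33 and -1.06 in the E2F2-labelled livers. All 4 E2F2-labelled livers lay below every WT liver, while E2F1 knockout replicate 1 lay within the WT range. Col1a1 fell 4.83-fold in E2F2-labelled livers (-2.27 ± 0.46, limma adjusted p = 0.00663). In E2f1-/- livers the difference of -1.26 ± 0.46 was not called (limma adjusted p = 0.0746). It was called without WT replicate 3 (adjusted p = 0.0356) or without E2F1 knockout replicate 1 (adjusted p = 0.0108), over a range of 0.0108 to 0.193 in 23 alternatives.

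Col1a2 (chromosome 6, mm9 4490619 to 4490678) had WT values of 3.48, 2.84, 3.04 and 3.69. The E2f1-/- livers gave 3.18, 2.26, 1.95 and 1.98, and the E2F2-labelled livers 1.59, 2.03, 1.78 and 1.95. As with Col1a1, replicate 1 of the E2f1-/- group overlapped WT and the E2F2-labelled group did not. Col1a2 fell in both groups, by a log2 difference of -0.92 ± 0.28 in E2f1-/- (limma adjusted p = 0.0345) and -1.43 ± 0.28 in E2F2-labelled livers (adjusted p = 0.0052). The former call ended without WT replicate 1 (adjusted p = 0.0832) or 4 (0.0869), without E2F1 knockout replicate 2 (0.0721), 3 (0.101) or 4 (0.0947), with no filter on dim probes (0.0735) and in a fit of the 2 groups alone (0.0772). The ratio of the Col1a1 to the Col1a2 probe, set to 0 for the WT mean, was -0.34 ± 0.40 (SD) in E2f1-/- and -0.85 ± 0.37 in E2F2-labelled livers, and it overlapped WT (-0.62 to 0.26) in both.

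Col3a1 (chromosome 1, mm9 45405589 to 45405648) lay at 2.28, 1.90, 2.24 and 2.36 in WT. It lay at 1.82, 1.58, 1.00 and 0.69 in E2f1-/- livers and at 0.26, 0.94, 0.66 and 0.78 in E2F2-labelled livers. Neither knockout group overlapped WT. The log2 difference was -0.92 ± 0.25 in E2f1-/- (limma adjusted p = 0.0209) and -1.54 ± 0.25, a fall of 2.90-fold, in E2F2-labelled livers (adjusted p = 0.00206). The E2f1-/- call ended without WT replicate 4 (adjusted p = 0.0503) or E2F1 knockout replicate 3 (0.0642) or 4 (0.0577). E2F1 knockout replicate 1, the highest of its group for Col1a1, Col1a2 and Col3a1, also stood apart in adipocyte markers. The summed signal of the 2 that could be tested, Cfd and Fabp4, was 53.4 there, against 2.18 to 4.23 in the other E2f1-/- livers, 13.9 to 25.1 in WT and 0.91 to 2.15 in E2F2-labelled livers. The part of this in the collagen values was not tested beyond the values without that array.

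The 2 tested type V genes moved in opposite directions. Type V chains join type I fibres and help to start them. Col5a1 (chromosome 2, mm9 27892892 to 27892951), its alpha-1 chain, read -0.72, -0.58, -0.47 and -0.27 in WT. It read -0.99, -0.97, -1.01 and -0.99 in E2f1-/- and -1.11, -0.75, -1.07 and -0.84 in E2F2-labelled livers, below every WT liver in both groups. The falls were small, -0.48 ± 0.14 (limma adjusted p = 0.0295) and -0.43 ± 0.14 (adjusted p = 0.0454), and they were lost in 9 and 16 of 23 alternatives, with normexp background correction among them (-0.28 and -0.22). The E2f1-/- call ended without WT replicate 2 or 4 or any 1 of the E2f1-/- arrays, and the E2F2-labelled call without WT replicate 2, 3 or 4 or any 1 of the knockout arrays of either group.

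Col5a3, the alpha-3 chain of type V (chromosome 9, mm9 20574592 to 20574651), went the other way. WT livers gave -0.40, -1.13, 1.41 and -0.30. E2f1-/- livers gave 2.73, 1.36, 2.58 and 2.42, and E2F2-labelled livers 1.79, 1.72, 2.83 and 3.11. WT replicate 3 was far above the other WT livers and just above the lowest E2f1-/- liver. Col5a3 rose 5.19-fold in E2f1-/- (2.38 ± 0.51, limma adjusted p = 0.00875) and 5.52-fold in E2F2-labelled livers (2.47 ± 0.51, adjusted p = 0.0072). It was higher than WT on all 4 slides in both groups, by 1.17 to 3.12 and by 1.42 to 3.41, and both calls held in all 23 alternatives. Relative to Col5a1 on the same array, Col5a3 was higher by 2.86 ± 0.63 (SD) and 2.90 ± 0.74, without overlap with WT (-0.96 to 1.47). Col5a2, the remaining type V gene, was well above background on 2 arrays and was not tested.

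Col27a1, a fibrillar chain known from cartilage and other developing tissues, also rose. Its probe (chromosome 4, mm9 62995485 to 62995544) read -4.20, -3.05, -1.25 and -3.35 in WT, where 2 of 4 arrays were well above background. It read -0.86, -1.20, -0.66 and -1.63 in E2f1-/- and -1.13, -1.04, -0.17 and -1.02 in E2F2-labelled livers. WT replicate 3, high for Col5a3 too, overlapped the E2f1-/- livers and not the E2F2-labelled ones. The rises were 1.88 ± 0.50 (limma adjusted p = 0.0209) and 2.13 ± 0.50 (adjusted p = 0.0121), and only 0.72 and 0.86 with normexp. The E2f1-/- call ended without WT replicate 1 (adjusted p = 0.0514), 2 (0.0536) or 4 (0.0511) or E2F1 knockout replicate 3 (0.0638). Col11a2, a chain of cartilage fibres, differed by 0.64 ± 0.22 (limma adjusted p = 0.0559) and 0.62 ± 0.22 (adjusted p = 0.0615). Both were called in the fit that blocked on slide (0.0403 and 0.0428) or without WT replicate 3 (0.00798 and 0.00846).

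The type IV genes Col4a1 and Col4a2 fell together in both knockout groups. They encode the chains that make up most basement membranes and lie head to head on chromosome 8. Their promoter windows in RefSeq (GRCm38.p6, 250 bases before to 50 after the start) overlap, and both are shown for this overlap. Whether the shared bases have a part in the joint fall was not tested. Capitals mark the 78 bases, chr8:11312777-11312854, that both windows hold, written on the strand of each gene. The Col4a1 window is chr8:11312777-11313076 on the minus strand and the Col4a2 window chr8:11312555-11312854 on the plus strand.
Col4a1: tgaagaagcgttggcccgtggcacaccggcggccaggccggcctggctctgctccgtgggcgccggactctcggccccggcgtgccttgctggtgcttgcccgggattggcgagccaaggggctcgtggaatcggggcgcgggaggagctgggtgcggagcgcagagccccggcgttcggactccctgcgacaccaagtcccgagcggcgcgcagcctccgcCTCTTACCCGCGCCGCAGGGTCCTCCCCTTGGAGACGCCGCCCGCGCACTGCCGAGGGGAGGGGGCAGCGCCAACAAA
Col4a2: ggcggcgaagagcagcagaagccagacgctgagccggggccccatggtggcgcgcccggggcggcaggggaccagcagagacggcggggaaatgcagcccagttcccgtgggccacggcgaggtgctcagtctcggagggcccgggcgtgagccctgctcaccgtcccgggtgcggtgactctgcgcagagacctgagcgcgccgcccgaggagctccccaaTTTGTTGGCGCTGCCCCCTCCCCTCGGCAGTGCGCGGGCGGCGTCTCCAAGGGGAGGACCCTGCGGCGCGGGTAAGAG

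The Col4a1 probe (chromosome 8, mm9 11199009 to 11199068) read 2.19, 1.22, 0.99 and 1.02 in WT. It read 0.05, 0.35, -0.33 and -0.33 in E2f1-/- and -0.16, -0.79, -0.52 and -0.83 in E2F2-labelled livers. Every knockout liver lay below every WT liver, and WT replicate 1 stood above the rest of its group. Col4a1 fell 2.68-fold in E2f1-/- (-1.42 ± 0.28, limma adjusted p = 0.00534) and 3.81-fold in E2F2-labelled livers (-1.93 ± 0.28, adjusted p = 0.00101).

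The Col4a2 probe (chromosome 8, mm9 11448840 to 11448899) gave 1.78, 0.70, 0.51 and 0.94 in WT. It gave -0.34, -0.22, -0.21 and -0.28 in E2f1-/- and -1.03, -0.83, -0.64 and -0.76 in E2F2-labelled livers. The 3 groups did not overlap, with E2F2-labelled livers lowest. The falls from WT were 2.37-fold (-1.25 ± 0.23, limma adjusted p = 0.00453) and 3.48-fold (-1.80 ± 0.23, adjusted p = 0.000545). All 4 of these Col4a1 and Col4a2 calls held in all 23 alternatives, those without WT replicate 1 included. The step from E2f1-/- to E2F2-labelled livers, -0.55 ± 0.23 for Col4a2, was not called (adjusted p = 0.376). The Col4a1 to Col4a2 ratio on each array, set to 0 for the WT mean, was -0.18 ± 0.33 (SD) and -0.13 ± 0.42 and overlapped WT (-0.29 to 0.15).

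Col4a3 and Col4a4 form a second head to head pair on chromosome 1 and encode chains found in specialised basement membranes such as that of the kidney glomerulus. The Col4a3 signals allow only a bound. The Col4a3 probe (mm9 82717775 to 82717834) read -2.73, -1.62, -3.87 and -2.75 in WT, where 3 of 4 arrays were well above background. In E2f1-/- livers it read -5.72, -5.14, -5.35 and -5.74 and in E2F2-labelled livers -6.10, -5.64, -5.68 and -5.60, and 0 of these 8 arrays were well above background. A floor was set at the dimmest signals that pass as well above background on the knockout arrays. The mean of all 4 WT arrays lay 1.64-fold above this floor for E2f1-/- and 1.68-fold above it for E2F2-labelled livers. These are bounds under the main scaling alone, and no test was run on them. Bounds given below for other genes rest on such a floor too. The limma fit used the measured signals, within background in the knockouts, and gave differences of -2.75 (adjusted p = 0.00104) and -3.02 (adjusted p = 0.000357). With normexp the differences shrank to -0.40 (adjusted p = 0.0841) and -0.34 (adjusted p = 0.13). They are smaller than the bounds, which thus do not hold under normexp.

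Col4a4 (mm9 82515563 to 82515622) read -2.50, -1.51, -2.60 and -1.48 in WT, -2.80, -1.62, -2.63 and -2.28 in E2f1-/- and -3.41, -2.69, -3.31 and -1.89 in E2F2-labelled livers. The groups overlapped. The differences were -0.31 ± 0.39 (limma adjusted p = 0.637) and -0.81 ± 0.39 (adjusted p = 0.163). Replicates 1 and 3 were the lowest in every group, and blocking on slide made the E2F2-labelled difference a call (adjusted p = 0.0218). Whether the pair differed from each other cannot be read from these values. Col4a6, a chain of smooth muscle and some epithelial basement membranes, differed by -0.01 ± 0.22 and 0.07 ± 0.22 and was not called (limma adjusted p = 0.986 and 0.857). The limits of about 2 standard errors around these values do not reach the falls of Col4a1 or Col4a2.

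**Figure D3:**
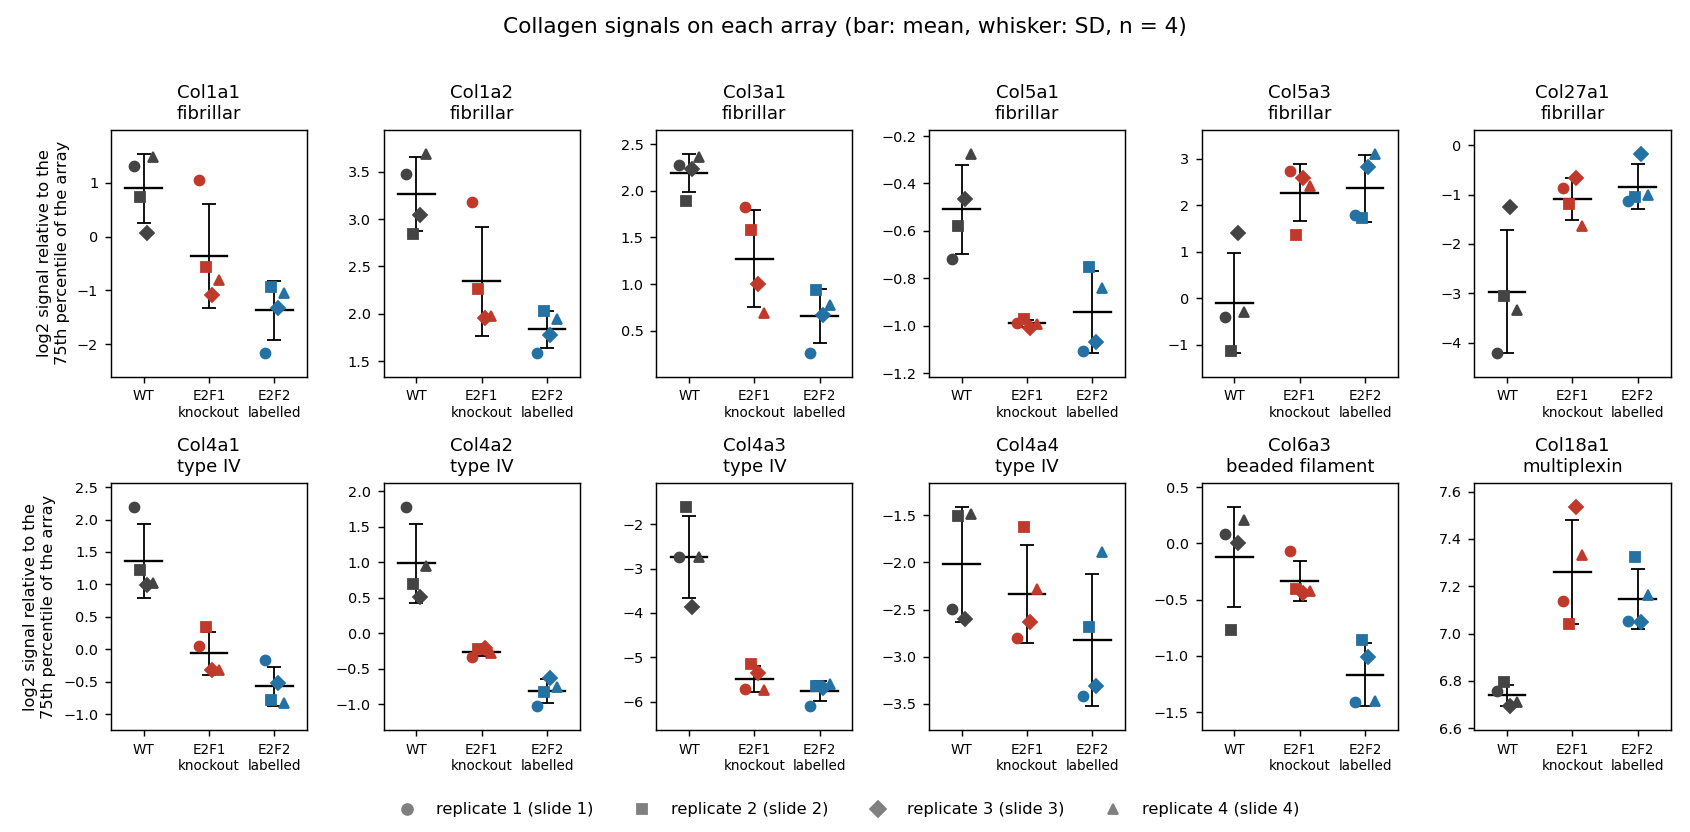
Log2 signal minus the array's own 75th percentile for 12 collagens in each liver, with the group mean (bar) and SD (whiskers, n = 4) and a symbol per replicate number, which is also the slide. Col4a1 and Col4a2 show no overlap between WT and either knockout group, E2F1 knockout replicate 1 sits near WT for Col1a1 and Col1a2, and WT replicate 3 sits near the knockouts for Col5a3 and Col27a1. Axes differ between panels and do not start at 0.

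Set side by side, the fibrillar and the basement membrane class each held genes that fell, and the gap between their medians depended on the genes counted. Where the same rule cut both classes, the type IV median was the lower in both comparisons with WT. Over all tested genes the type IV medians were -1.25 in E2f1-/- and -1.80 in E2F2-labelled livers, where 3 of 5 genes fell and 0 rose in each, and the fibrillar medians were -0.48 and -0.43, where 3 and 4 of 7 genes fell and 2 rose. These counts include Col4a3 and Col27a1, which were tested only through the groups where they are high, and are no support for a difference between the classes. Without Col4a3 the type IV medians were -0.78 and -1.30. The 5 fibrillar genes that passed the filter in each of the 3 groups, Col1a1, Col1a2, Col3a1, Col5a1 and Col5a3, had medians of -0.92 and -1.43, and the 3 such type IV genes, Col4a1, Col4a2 and Col4a6, had -1.25 and -1.80. Both memberships were chosen after the data were seen.

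The array values showed the same dependence, taking for each class the median departure of its genes from their WT means. Over all tested genes the fibrillar departure minus the type IV departure was -0.22, -0.03, 0.51 and 0.17 in WT. It was 1.46, 0.55, 0.70 and 0.78 in E2f1-/- livers and 0.92, 1.57, 1.06 and 1.42 in E2F2-labelled livers, so all 8 knockout values exceeded the highest WT value. With the genes that passed in each group it was -0.71, -0.01, 0.41 and 0.28 in WT, 1.23, 0.40, -0.003 and -0.03 in E2f1-/- livers, and -0.15, 0.57, 0.13 and 0.43 in E2F2-labelled livers. The groups then overlapped. No p is given for these scores, since the members were chosen as a list.

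The 4 interstitial chains Col1a1, Col1a2, Col3a1 and Col5a1 alone had medians of -0.92 and -1.48, and 3 of the 4 fell in E2f1-/- and 4 of 4 in E2F2-labelled livers. Their departure was below that of the 5 type IV genes on 3 of the 8 knockout arrays, E2F1 knockout replicates 3 (-1.26 against -1.19) and 4 (-1.40 against -1.26) and E2F2 replicate 1 (-1.80 against -1.52), and above it on the other 5. With Col18a1 added to type IV the medians of that class were -0.78 and -1.30.

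**Figure D4:**
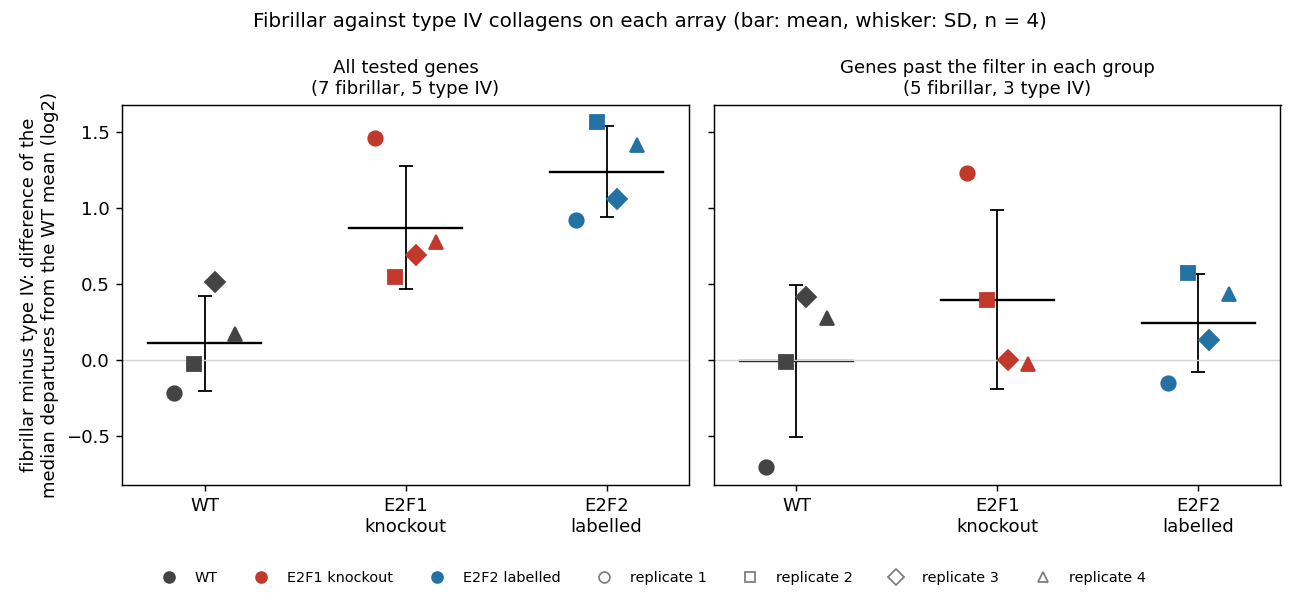
Median departure from the WT mean of the fibrillar genes minus that of the type IV genes on each array (log2), with group means and SD (n = 4). Over the 7 and 5 tested genes (left) WT arrays lie between -0.22 and 0.51 and the knockout arrays between 0.55 and 1.57, and over the 5 and 3 genes that passed the filter in each group (right) the groups overlap.

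Col18a1, the type XVIII collagen from which endostatin is cut, differed from the type IV genes in direction. Its probe (chromosome 10, mm9 76515790 to 76515849) read 6.76, 6.80, 6.69 and 6.71 in WT, the smallest spread of any tested collagen there. It read 7.14, 7.04, 7.54 and 7.33 in E2f1-/- and 7.05, 7.32, 7.05 and 7.16 in E2F2-labelled livers. Every knockout liver lay above every WT liver. The rise was 0.52 ± 0.14 in E2f1-/- (limma adjusted p = 0.0212), and the difference of 0.41 ± 0.14 in E2F2-labelled livers was not called (adjusted p = 0.0568). A second probe (mm9 76514926 to 76514985) was higher by 0.79 and 0.56, again without overlap. The E2f1-/- call ended with quantile normalization (0.28, adjusted p = 0.148), centring on the median (0.47, adjusted p = 0.119), the authors' matrix values (0.28, adjusted p = 0.151) and normexp (0.41, adjusted p = 0.0667), with no filter on dim probes (0.0643), in a fit of the 2 groups alone (0.0567), and without E2F1 knockout replicate 3 (0.0588) or 4 (0.0569). The E2F2-labelled difference was called in 4 of 23 alternatives, among them the mean of the tested probes (adjusted p = 0.0283), a robust fit (0.0414) and the fit without E2F1 knockout replicate 3 (0.0412). Of 10 hepatocyte markers 4 were higher and 0 lower in E2f1-/-, and 3 higher and 0 lower in E2F2-labelled livers, beside 12.8% and 12.5% of all genes higher. The list's median was 0.48 and 0.40, but not every marker moved up, with Apoa1 at -0.34 and -0.62, neither called. The part of hepatocyte markers in this result was not tested.

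Among the type VI genes, which encode the chains of beaded microfilaments, Col6a3 fell in E2F2-labelled livers. Its probe (chromosome 1, mm9 92663663 to 92663722) read 0.08, -0.77, 0.00 and 0.21 in WT and -0.06, -0.41, -0.44 and -0.43 in E2f1-/- livers. It read -1.41, -0.86, -1.01 and -1.40 in E2F2-labelled livers, below every other liver. The fall from WT was 2.07-fold (-1.05 ± 0.22, limma adjusted p = 0.00764; -0.57 with normexp, adjusted p = 0.0199), and the difference in E2f1-/- livers was -0.22 ± 0.22 (adjusted p = 0.553). The knockout groups differed from each other by -0.84 ± 0.22, which was not called (adjusted p = 0.107, range 0.0334 to 0.306) except without WT replicate 2 (adjusted p = 0.0334). Col6a1 differed by -0.38 ± 0.32 in both groups and Col6a2 by -0.01 ± 0.35 and -0.20 ± 0.35, none of them called. Relative to Col6a1 on the same array, Col6a3 was -0.67 ± 0.35 (SD) in E2F2-labelled livers, below all WT (-0.38 to 0.37) and all E2f1-/- livers (-0.02 to 0.48).

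Col7a1, the chain of the anchoring fibrils of epithelia (chromosome 9, mm9 108886861 to 108886920), read -2.13, -2.01, -1.24 and -1.70 in WT. It read -0.89, 0.18, -0.75 and -1.05 in E2f1-/- and -1.37, -0.72, -0.33 and -1.05 in E2F2-labelled livers. E2f1-/- livers lay above every WT liver, and the lowest E2F2-labelled liver overlapped WT. Col7a1 rose by 1.14 ± 0.30 in E2f1-/- livers (limma adjusted p = 0.021; 0.63 with normexp), a call lost without WT replicate 1 (adjusted p = 0.0569) or 2 (0.0626). The difference of 0.90 ± 0.30 in E2F2-labelled livers was not called (adjusted p = 0.054), but was in 6 of 23 alternatives, among them the fit blocked on slide (0.0303) and those without WT replicate 3 (0.0255), E2F1 knockout replicate 2 (0.0282) or E2F2 replicate 1 (0.0386). No fibril-associated gene was called by limma in the fit of all arrays. Their differences lay between -0.42 and 0.37 in E2f1-/- and between -0.45 and 0.74 in E2F2-labelled livers, with Col20a1 at 0.74 ± 0.25 the largest (limma adjusted p = 0.0577). It was called in 4 of 23 alternatives, those without WT replicate 1 (0.0489) or E2F1 knockout replicate 1 (0.0485) included.

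Collagens varied somewhat more between livers of 1 group than the median gene did. The median SD over the tested collagens was 0.44 in WT, 0.39 in E2f1-/- and 0.30 in E2F2-labelled livers, beside 0.33, 0.28 and 0.26 over all genes tested. It reached 1.24 for Col27a1 in WT and 0.96 for Col1a1 in E2f1-/- livers. E2F2 replicate 1 had the lowest value of its group in 13 of 21 collagens, and WT replicate 4 had the highest of its group in 9. Without overlap between the groups were 5 collagens lower and 2 higher in E2f1-/- against WT (6.96% and 14% of all genes, 20.9% in either direction), and 8 lower and 3 higher in E2F2-labelled livers (7.47% and 15.1%, 22.6% in either direction). Between the knockout groups Col4a2 and Col6a3 did not overlap, both lower in E2F2-labelled livers, where 8.83% of all genes did not overlap (4.67% higher, 4.16% lower).

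RefSeq promoter windows were found for 18 of the 21 tested collagens, 20 windows in all, and searched on both strands. CCAAT, the letters bound by NF-Y, was in 7 of 20 windows and in 37.4% of 32851 windows of the same length in the table. GGGCGG, the core of a GC box, was in 14 of 20 and in 35.7%. The E2F letters TTTCCCGC, TTTCGCGC, TTTGCCGC or TTTGGCGC were in 0 of 20 and in 2.26%, which says only that these letters are not in these windows. None of these motifs contains another. Col1a2, Col3a1 and Col5a3 are shown because the first pair fell and the last rose, with CCAAT and GGGCGG in capitals on either strand (ATTGG and CCGCCC on the other strand). They are chr6:4505368-4505667 on the plus strand, chr1:45311288-45311587 on the plus strand and chr9:20815018-20815317 on the minus strand (GRCm38.p6).
Col1a2: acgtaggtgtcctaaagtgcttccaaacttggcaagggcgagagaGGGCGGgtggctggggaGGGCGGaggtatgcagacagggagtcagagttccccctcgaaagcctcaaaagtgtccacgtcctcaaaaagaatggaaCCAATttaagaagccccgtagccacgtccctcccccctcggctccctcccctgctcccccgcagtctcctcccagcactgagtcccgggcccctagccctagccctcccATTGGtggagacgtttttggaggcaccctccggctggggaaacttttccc
Col3a1: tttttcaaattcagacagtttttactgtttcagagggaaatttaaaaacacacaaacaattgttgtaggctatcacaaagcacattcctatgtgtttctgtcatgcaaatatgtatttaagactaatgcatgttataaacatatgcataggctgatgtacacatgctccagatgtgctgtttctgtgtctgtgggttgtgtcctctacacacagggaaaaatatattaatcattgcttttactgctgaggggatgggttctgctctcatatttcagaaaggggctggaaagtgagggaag
Col5a3: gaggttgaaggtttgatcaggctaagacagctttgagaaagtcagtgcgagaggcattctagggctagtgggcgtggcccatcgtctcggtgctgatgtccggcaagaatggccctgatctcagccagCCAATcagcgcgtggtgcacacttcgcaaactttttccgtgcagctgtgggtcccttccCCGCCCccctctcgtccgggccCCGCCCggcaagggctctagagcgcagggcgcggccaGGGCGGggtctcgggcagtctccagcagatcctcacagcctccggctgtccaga

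The Col1a2 window holds 2 CCAAT and 2 GGGCGG matches, the Col5a3 window 1 and 3, and the Col3a1 window 0 of either. The fallen and the risen gene thus share both letters and the fallen pair does not share them.

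Genes that make, cut and bind collagen were examined from lists written from general knowledge, read against the 20.3% of all genes called in each comparison with WT. Of 16 tested genes of chain modification and folding, which hydroxylate and glycosylate new chains, 1 rose and 0 fell in E2f1-/- and 1 rose and 2 fell in E2F2-labelled livers. The gene that rose was Colgalt2, a collagen galactosyltransferase, at least 1.35-fold and 2.14-fold higher. Its probe was well above background on 0 WT, 2 E2f1-/- and 4 E2F2-labelled arrays. It was thus tested through the group where it is high, so the filter favoured a rise and its calls are no support for one. Plod3, a lysyl hydroxylase and glucosyltransferase, fell by 0.63 ± 0.19 in E2F2-labelled livers (adjusted p = 0.0344), and P3h4, a partner of the prolyl and lysyl hydroxylases, by 0.75 ± 0.24 (adjusted p = 0.0447). The chaperone Serpinh1 (HSP47) was at -0.04 ± 0.23 and -0.20 ± 0.23 and was not called.

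Of 9 genes of procollagen secretion and processing, 2 rose and 2 fell in E2f1-/- and 1 rose and 1 fell in E2F2-labelled livers. Adamts14, a protease that removes the N-terminal propeptide of fibrillar procollagens, fell by 2.41 ± 0.52 and 2.51 ± 0.52 (limma adjusted p = 0.00839 and 0.00678). Pcolce, an enhancer of C-propeptide removal, fell by 0.59 ± 0.17 in E2f1-/- livers (adjusted p = 0.0253), where its relative Pcolce2 rose by 1.87 ± 0.58 (adjusted p = 0.0401). Mia2, a cargo protein of the endoplasmic reticulum, rose by 0.54 ± 0.17 and 0.72 ± 0.17. Of 6 cross-linking genes 2 fell and 0 rose in both groups. They were the lysyl oxidase Loxl4, at least 3.03-fold and 3.07-fold lower, which was seen on 3 WT and 0 knockout arrays and so was tested through WT alone, and the transglutaminase Tgm2 (-1.92 ± 0.32 and -1.19 ± 0.32, limma adjusted p = 0.00286 and 0.0212). Lox itself was well above background on no array.

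Of 16 partners of the basement membrane 6 fell and 2 rose in E2f1-/- and 5 fell and 1 rose in E2F2-labelled livers. Their medians were -0.37 and -0.20. Nid1, which links laminin to type IV collagen, fell 8.42-fold (-3.07 ± 0.47, limma adjusted p = 0.00184) and 8.82-fold (-3.14 ± 0.47, adjusted p = 0.0013). Laminin chains went both ways. Lama5 fell by 1.62 ± 0.46 in E2f1-/- (adjusted p = 0.0287) and Lamb2 fell by 1.20 ± 0.38 in E2F2-labelled livers (adjusted p = 0.0415), while Lama3 rose by 0.97 ± 0.23 and 1.26 ± 0.23 (adjusted p = 0.0129 and 0.0039) and Lamb3 by 1.14 ± 0.30 in E2f1-/- livers (adjusted p = 0.0202).

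Of 10 genes of fibril partners 1 rose and 2 fell in E2f1-/- and 0 rose and 3 fell in E2F2-labelled livers. The matricellular gene Thbs1 was called lower in both groups (-2.64 ± 0.45 and -2.60 ± 0.45, limma adjusted p = 0.00322 and 0.00305). Its probe was well above background on 4 WT arrays and on 1 of 4 arrays in each knockout group. Thbs1 was thus tested through WT alone, where it is high, so the filter favoured a fall. Fbn1 and Thbs2 were well above background on 4 WT arrays. Fbn1, the gene of fibrillin-1, was so on 0 E2f1-/- arrays and at least 1.83-fold lower there. Thbs2 was so on 0 E2F2-labelled arrays and at least 1.83-fold lower there. No test was run on these bounds, and the limma adjusted p (0.00505 and 0.0206) belong to the measured signals. Fbn1 was also called lower in E2F2-labelled livers (-1.44 ± 0.22, limma adjusted p = 0.00145), with 1 array well above background. Fbn1 was thus tested through WT alone, so the filter favoured a fall. Ogn, a small proteoglycan gene, was called higher in E2f1-/- livers (1.83 ± 0.58, adjusted p = 0.0421), where 3 of 4 arrays were well above background against 1 of 4 in WT. Ogn thus passed the filter in E2f1-/- livers, where it is high, and not in WT. The filter favoured a rise, and the size of the change is uncertain. The proteoglycan genes Dcn and Lum, which bind type I fibres, were at -0.01 ± 0.26 and -0.01 ± 0.25 in E2f1-/- and at 0.14 ± 0.26 and 0.04 ± 0.25 in E2F2-labelled livers, none called.

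Of 8 collagen receptors 3 fell and 0 rose in E2f1-/- and 0 of 8 were called in E2F2-labelled livers. Ddr1, a receptor kinase for collagen, was called lower in E2f1-/- livers (-3.05 ± 0.64, limma adjusted p = 0.00779). Its probe was well above background on 2 of 4 arrays there against 4 of 4 in WT. It passed the filter in WT and not in E2f1-/- livers, so the size of the change is uncertain. In E2F2-labelled livers Ddr1 was at -1.69 ± 0.64 (adjusted p = 0.0813). Adgrg1, a receptor for type III collagen, fell by 1.72 ± 0.52 in E2f1-/- (adjusted p = 0.0347) and was at -1.42 ± 0.52 in E2F2-labelled livers (adjusted p = 0.0709). Between the knockout groups neither gene was called (adjusted p = 0.465 and 0.918). In the TGF-beta pathway, a main inducer of fibrillar collagen genes, 5 of 12 genes fell in E2f1-/- and 4 in E2F2-labelled livers, and 0 rose in either. Tgfbr2, the type II receptor, fell 4.61-fold (-2.20 ± 0.28, adjusted p = 0.000771) and 5.32-fold (-2.41 ± 0.28, adjusted p = 0.000267). The list's median was -0.43 and -0.58.

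Markers of cell types, here and below, are read against the 20.3% of all tested genes called in each comparison with WT. Of all genes 12.8% and 12.5% were higher and 7.48% and 7.85% lower. Of 13 tested markers of stellate cells and myofibroblasts 3 fell and 0 rose in E2f1-/- and 2 fell in E2F2-labelled livers, with medians of 0.03 and -0.08. Their summed signal ran from 61.7 to 138 in WT, 85.4 to 118 in E2f1-/- and 83.8 to 128 in E2F2-labelled livers, and the groups overlapped. Timp1, an inhibitor of matrix proteases, fell in both groups (-2.32 ± 0.70 and -2.76 ± 0.70, limma adjusted p = 0.0345 and 0.0164). Pdgfrb, a mesenchymal growth factor receptor, also fell in both (-0.62 ± 0.19 and -0.60 ± 0.19, adjusted p = 0.0373 and 0.0426). Rgs5, a pericyte gene, fell by 0.77 ± 0.19 in E2f1-/- livers (adjusted p = 0.0163). Lrat, which stores retinol in quiescent stellate cells, was at 0.03 ± 0.32 and -0.09 ± 0.32, and Acta2, the smooth muscle actin of myofibroblasts, at 0.37 ± 0.30 and 0.11 ± 0.30. None of these values of Lrat and Acta2 was called.

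Of 6 markers of portal fibroblasts and mesothelium 1 fell in each group, Entpd2, by 1.75 ± 0.42 and 1.68 ± 0.42 (limma adjusted p = 0.0135 and 0.0157), and Upk3b was above background on no array. Their summed signal was 7.76 to 19.6 in WT, 4.77 to 8.31 in E2f1-/- and 3.84 to 5.53 in E2F2-labelled livers. Their median changes were 0.08 and -0.57. The list's median departure from the WT mean overlapped WT (-0.65 to 0.62) in both groups, at -0.27 to 0.18 and -0.93 to -0.11. Endothelial markers, the genes of cells that lie on type IV collagen, fell in 2 of 12 cases in E2f1-/- and in 3 of 12 in E2F2-labelled livers, where 1 rose, and their summed signals overlapped WT (71.4 to 99.9 and 91.3 to 104 against 82.4 to 109). Lyve1, a hyaluronan receptor of sinusoidal endothelium, fell 7.55-fold and 7.09-fold (-2.92 ± 0.27 and -2.83 ± 0.27, limma adjusted p = 8.77e-05 and 6.93e-05), while Stab2, another scavenger receptor of these cells, was at -0.05 and 0.11 and was not called. Bmp2 rose by 1.18 ± 0.22 in E2F2-labelled livers (adjusted p = 0.00442) and by 1.08 ± 0.22 over the E2f1-/- livers (adjusted p = 0.0268).

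Macrophage markers fell in 4 of 10 cases in E2f1-/- and in 5 of 10 in E2F2-labelled livers, and 1 rose in each. Itgax fell in both groups (-3.14 ± 0.55 and -4.29 ± 0.55, limma adjusted p = 0.0034 and 0.00051), and the Kupffer cell gene Clec4f rose by 1.86 ± 0.41 and 1.37 ± 0.41 (adjusted p = 0.00926 and 0.0338). The summed signal of the list overlapped between the groups, at 110 to 289 in WT, 173 to 278 and 112 to 279. The list's median changes were -0.38 and -0.82. Of 4 cholangiocyte markers 1, Spp1, fell by 2.31 ± 0.72 and 2.42 ± 0.72 (adjusted p = 0.0411 and 0.0339), and Epcam and Muc1 were above background on no array. Of 2 adipocyte markers 0 were called in E2f1-/- and 1, Fabp4, fell in E2F2-labelled livers (-3.53 ± 0.73, adjusted p = 0.00676). The part of these cell markers in the collagen differences was not tested.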

How the data were processed

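Liver RNA of 12 mice (50 ng labelled per liver, per the labels) was read from the deposited scanner output. Its processed signal, a linear intensity after background subtraction, came from Agilent Feature Extraction (version 10.7.3.1 in the submitters' processing notes). The deposited series matrix holds the authors' log2 values, for which no method was found in the sources used here. Their correlation with the log2 scanner values was at least 0.998 on each array, and they served as an alternative. Probe positions are the mm9 coordinates in the files, and promoter windows come from RefSeq (GRCm38.p6).

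After control spots and flagged outliers had been dropped, repeated spots of a probe were averaged, which gave 55681 probes, 28430 of them tested. Gene names came through RefSeq accessions (28020 probes), current symbols (3423) or synonyms (295), and 23943 probes kept the name in the file. Groups follow the sample titles. limma 3.58.1 in R 4.3.3 fitted all 12 arrays at once without covariates (9 residual degrees of freedom, prior 3.15), on log2 signals minus the 75th percentile of the array. The procedure was tested on simulated data. Replicate numbers coincide with slides and nothing in the labels ties them to litters or days, so they were not taken to pair the mice, and blocking on slide (6 residual degrees of freedom) was an alternative.

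The members, classes and lists were chosen with earlier results of these data known. Called collagens are given in full, and of each list up to 2 called genes per direction and comparison with the largest change, and 1 gene that this rule names is not reported here. Serpinh1, Dcn, Lum, Lrat, Acta2, Stab2 and Apoa1 fall outside that rule and were picked with their values in view. So do the values of Fbn1, Ddr1 and Adgrg1 in E2F2-labelled livers and of Pdgfrb in E2f1-/- livers. As alternatives the fit was repeated with quantile normalization, with normexp (offset 50), with median centring and on the matrix values, without a filter and with all 12 arrays required, with outlier spots, with a gene's probes averaged, with the block, on 2 groups at a time, with a robust trended prior, without each array in turn, and with other memberships of the classes, of which the classes kept to genes past the filter in each group and type IV without Col4a3 were added after the data were seen. The number of arrays limits the precision.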

Additional observations from a re-analysis of the deposited data

Results flagged for a closer look

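In 3 of 63 sets of 4 livers, each set holding 1 tested collagen in 1 group, a single liver lay far from the other livers of its group by Dixon's ratio, and chance flags about 1 in 20 such sets. Col4a3 read -6.10 in E2F2 replicate 1, against -5.68 to -5.60 in the other E2F2-labelled livers, all within background. Col6a3 read -0.064 in E2F1 knockout replicate 1, against -0.44 to -0.41 in the other E2f1-/- livers. Col27a1 read -0.17 in E2F2 replicate 3, against -1.13 to -1.02 in the other E2F2-labelled livers, and replicate 3 was also the highest WT and the highest E2f1-/- liver for this gene.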

How the results depend on the processing

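Of 20 called collagen changes 11 held in all of their alternatives, and over all 20 the call held in 405 of 456 refits, was lost in 51 and changed sign in 0. Of 43 changes not called 22 of 981 refits called them. The numbers of called collagens ranged from 5 to 12 (E2f1-/- against WT), 9 to 11 (E2F2-labelled against WT) and 0 to 1 (between the knockouts) with 1 array left out, the last 1 being Col6a3. The fibrillar median for E2f1-/- was 0.004 without a filter, -0.92 with probes above background on all 12 arrays and -0.92 for the interstitial chains alone, and -0.55 to -0.40 with 1 array left out. For E2F2-labelled livers it was -0.22 with normexp, 0.002 without a filter, -1.43 with the all-array filter and -1.48 for the interstitial chains, and -0.50 to -0.35 with 1 array left out. Without a filter the class held 11 genes, 4 of them near background. Between the knockouts it was 0.022 with normexp and -0.56 for the interstitial chains, and -0.21 to 0.066 with 1 array left out, turning positive without E2F1 knockout replicate 3 (0.04) or 4 (0.01) or E2F2 replicate 1 (0.066); the cause was not tested. The type IV median was -0.40, -0.34 and -0.05 with normexp in the 3 comparisons, where the dim signals of Col4a3 counted as nearly equal, and -0.27 between the knockouts with the mean of all probes. With 1 array left out it ran from -1.40 to -0.98, -1.95 to -1.53 and -0.53 to -0.26. Kept to genes past the filter in each group, the fibrillar median was -0.92 (E2f1-/-) and -1.43 (E2F2-labelled). The deviations of 12 pairs of arrays with the same replicate number correlated at 0.04 to 0.42, with 10 pairs above 0.1, and 11 of 12 arrays correlated best with an array of their own number. As 2 pairs did not pass, the numbers were not taken as pairs. With the replicate block (slide) 11, 13 and 0 collagens were called against 10, 10 and 0. Over all genes the calls fell from 4173 to 2691 without a filter, 2518 without WT replicate 2 and 2550 without E2F1 knockout replicate 3 (E2f1-/-), from 4182 to 2561 without WT replicate 2 (E2F2-labelled), and from 328 to 213 with normexp and 202 with the all-array filter (between the knockouts). Signals near background limit what can be said of Col4a3, Col4a4, Col11a2, Col27a1 and the 23 untested collagens.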
